A study of Homo sapiens with 6 samples.

Results

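Chromatin accessibility was examined at 9 genes of MHC class I antigen presentation, HLA-B, HLA-C, HLA-E, B2M, TAP1, TAP2, PSMB8, PSMB9 and NLRC5, which were listed by name and are 9 of the 20136 protein-coding genes of the annotation. For each gene the ATAC-seq peaks were taken that overlapped its body extended by 10 kb to each side. A peak within 3 kb of any annotated start site of the gene was counted as a promoter peak and the others as distal peaks. The peak lists came from 3 esophageal cell lines with 2 libraries each, named here by the library number in the sample labels. HET-1A (libraries 1 and 2) is a non-cancerous esophageal epithelial line and was cultured in BEBM with the additives recommended by ATCC. KYSE-30 (libraries 4 and 6) and KYSE-150 (libraries 7 and 8) are esophageal squamous cell carcinoma (ESCC) lines and were grown in RPMI/F12 with fetal bovine serum and antibiotic-antimycotic. No line was treated, and each library was made from lysed cells with the Tn5 transposase, which cuts open DNA. Each condition is a single line and the media differed, so line and medium cannot be told apart for HET-1A, and whether the 2 libraries of a line came from separate cultures is not given in the sources used here.

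MHC class I molecules display peptides from inside the cell to CD8 T cells. Peptides are cut by the proteasome, in which PSMB8 and PSMB9 replace constitutive subunits to form the immunoproteasome, pass into the endoplasmic reticulum through the transporter TAP1-TAP2 and are loaded onto a heavy chain (HLA-B, HLA-C, HLA-E) bound to its light chain B2M. NLRC5 is a transactivator of MHC class I genes, and interferon gamma induces genes of this pathway, in part through IRF1. In epithelial tumours, reduced expression of this pathway is a known route by which cells escape T cells.

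Peaks at these genes were found in 1 library of HET-1A and 1 library of KYSE-30 only. HET-1A library 2 held a promoter peak at 6 of the 9 genes (HLA-C, HLA-E, TAP1, TAP2, PSMB9 and NLRC5), where 35.4% of all protein-coding genes had one. KYSE-30 library 6 also held a promoter peak at 6 of the 9 (B2M, TAP1, TAP2, PSMB8, PSMB9 and NLRC5), where 28.7% of all genes had one. TAP1, TAP2, PSMB9 and NLRC5 had promoter peaks in both libraries, HLA-C and HLA-E in HET-1A library 2 only, B2M and PSMB8 in KYSE-30 library 6 only, and HLA-B in neither. The NLRC5 peaks were different sites, 82756 bp (HET-1A) and 45517 bp (KYSE-30) from its main start. TAP1 and PSMB9 were called in HET-1A library 2 through the same peak. The other libraries held 0 of 9 promoter peaks. All genes had one at a share of 0.0944% in the other HET-1A list (library 1), 3.88% in the other KYSE-30 list (library 4), and 1.79% and 0.363% in the KYSE-150 lists (libraries 7 and 8). With shares this low, a count of 0 of 9 cannot be told apart from the background of the list.

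The lists were of very unequal length, from 168 peaks in HET-1A library 1 to 15979 in HET-1A library 2, with 11671 in KYSE-30 library 6 and 259 to 1255 in the remaining 3. HET-1A library 2 and KYSE-30 library 6 are called the long lists. Read totals are not given in the lists. The fold enrichment of a peak (tags at its summit over the local background, 1 being added to both) fixes, together with its p-value, the number of tags, which was recovered for 99.6 to 100% of the peaks of each library. The genome background, taken as the smallest local one in a list, ranged from 1.49 tags per 200 bp (KYSE-30 library 6) to 3.34 (HET-1A library 2). At that background a listed peak held at least 8 tags in KYSE-30 library 6 and at least 13 in both KYSE-150 libraries. With 2 libraries against 2 an exact two-sided permutation test cannot give a p-value under 0.33, so the values stand per library, with no test between lines. At the peaks of the 9 genes the local background was 1.02 to 2.37 times the genome background in HET-1A library 2 and 1.12 to 2.08 times in KYSE-30 library 6. The absence of a peak means that the list holds no site in the window. Except around NLRC5, the running peak numbers had no gap, so no site there reached the threshold of that list. For NLRC5 this was not established in KYSE-150 library 8 and HET-1A library 1. Intervals given with fold enrichments are exact 95% Poisson intervals of the tags and cover counting error only. They treat tags as independent counts, and whether both ends of a fragment were counted as tags is not given in the sources used here. Of 7 epithelial markers fixed as a check of the lines, KRT8, KRT18 and EPCAM (42.9%) had a promoter peak in HET-1A library 2, against 35.4% of all genes. KRT8 and KRT18 had the same fold enrichment there, 5.33, so they may stand for 1 peak. In KYSE-30 library 6, KRT8 and EPCAM (28.6%) had one, against 28.7% of all genes. KRT5, KRT14, TP63 and CDH1 had none in any library, so the squamous identity of the lines was not visible in these lists. Of 6 annotated markers of blood cells and fibroblasts, CD68 alone (16.7%, against 35.4% of all genes) had a promoter peak, with 4.71 in HET-1A library 2.

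**Figure D1:**
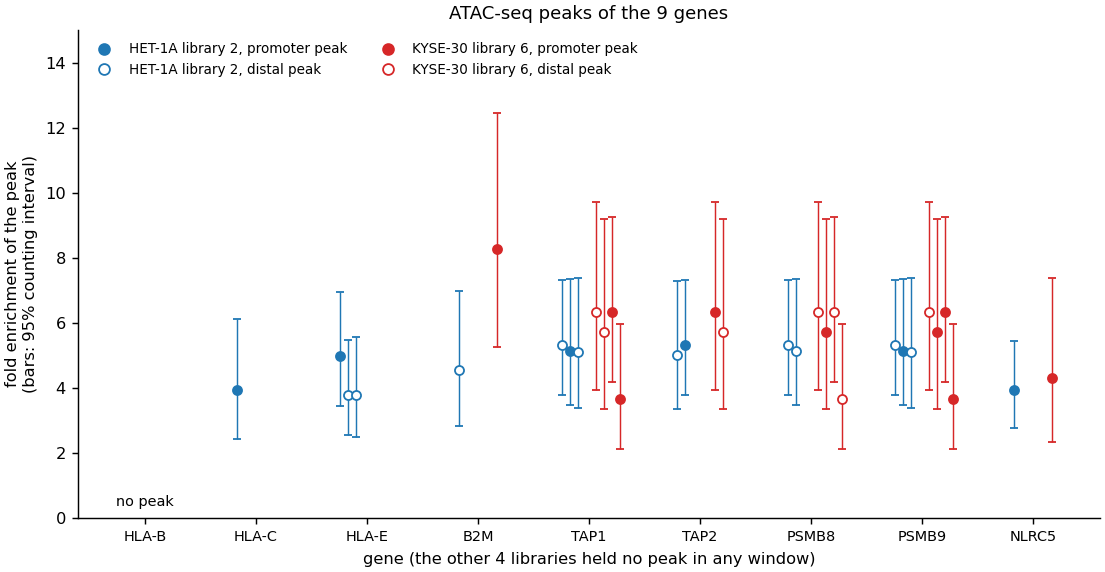
Fold enrichment (linear axis) of every peak in the windows of the 9 genes in HET-1A library 2 (blue) and KYSE-30 library 6 (red), with filled points for promoter peaks, open points for distal peaks and bars for the 95% counting interval. A peak that lies in the windows of several neighbouring genes is drawn at each of them. The highest point is the B2M promoter peak of KYSE-30 library 6, at 8.27, and HLA-B has none.

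The promoter sequences are given first, because the peaks at these genes lay on short, partly shared stretches. All are from the hg19 reference, 5′ to 3′ on the strand of the gene (for the TAP1-PSMB9 stretch, the strand of PSMB9), and are not the alleles of the cell lines. Capitals mark matches, on either strand, to the letters of a Y box (ATTGG), a CRE core (TGACG) and an interferon regulatory factor (IRF) core (GAAANNGAA). A match is a match of letters and does not show that a factor binds. The 200 bases before the main start sites of HLA-E (chr6:30457086-30457285, + strand) and HLA-C (chr6:31239870-31240069, − strand), and 30 bases of the HLA-B promoter (chr6:31325033-31325062, − strand), show the CRE core followed by Y boxes in either orientation in all 3 heavy-chain genes, with and without a peak.
HLA-E: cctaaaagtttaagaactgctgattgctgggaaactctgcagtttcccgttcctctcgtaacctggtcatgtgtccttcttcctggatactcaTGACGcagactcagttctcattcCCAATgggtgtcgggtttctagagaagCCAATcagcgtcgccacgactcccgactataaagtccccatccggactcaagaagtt
HLA-C: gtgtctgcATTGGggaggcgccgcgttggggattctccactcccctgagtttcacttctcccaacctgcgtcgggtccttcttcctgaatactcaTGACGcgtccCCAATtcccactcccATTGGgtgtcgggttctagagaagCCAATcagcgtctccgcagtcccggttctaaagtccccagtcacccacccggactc
HLA-B: TGACGcgtccccacttcccactcccATTGG
The light chain B2M (chr15:45003515-45003714, + strand) held the same elements in the same order, preceded by a pair of overlapping IRF cores.
B2M: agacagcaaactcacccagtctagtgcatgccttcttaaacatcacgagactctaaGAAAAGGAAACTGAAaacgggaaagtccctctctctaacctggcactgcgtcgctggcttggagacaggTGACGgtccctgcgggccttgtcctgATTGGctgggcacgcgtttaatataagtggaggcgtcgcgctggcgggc
The 300 bases next to the outermost TAP1 start, on the side of PSMB9 (chr6:32821594-32821893, + strand), are shown because a single stretch serves both genes, which are read away from each other. The 30 bases around the IRF core of TAP2 (chr6:32806556-32806585, − strand) and the bases before the outermost PSMB8 start (chr6:32812457-32812612, − strand) are shown because peaks covered them.
TAP1 to PSMB9: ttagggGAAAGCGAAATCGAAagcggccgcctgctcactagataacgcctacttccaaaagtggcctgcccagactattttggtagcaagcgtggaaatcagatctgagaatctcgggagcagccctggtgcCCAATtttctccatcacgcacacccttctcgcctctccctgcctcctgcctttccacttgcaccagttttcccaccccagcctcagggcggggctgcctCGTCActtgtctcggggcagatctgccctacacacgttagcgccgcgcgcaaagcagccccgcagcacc
TAP2: gctggggaagcGAAAGCGAAagctgcccga
PSMB8: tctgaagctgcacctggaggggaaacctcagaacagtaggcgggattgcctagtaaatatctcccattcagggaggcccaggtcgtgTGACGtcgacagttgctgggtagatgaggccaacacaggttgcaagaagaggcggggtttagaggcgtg

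Among 19855 promoters of 200 bases, an IRF core was found in 4.68%, and in the same window in B2M, TAP1 and TAP2 among the 9 genes. For each motif only the given letters were searched, so the lack of a match does not show that a promoter lacks such a site. A Y box was found in 30.4% of promoters and in HLA-B, HLA-C, HLA-E and B2M. A CRE core was found in 22.7% and in these 4 genes together with TAP2 and PSMB9. Further motifs were searched and are not marked: the interferon gamma activated site TTCNNNGAA (4.35% of promoters; PSMB8), an NF-kB site GGGNNTTCC (5.55%; HLA-B and PSMB8) and the AP-1 core TGANTCA (3.73%; none of the 9). All these windows end at the main start site. For PSMB8 that window does not reach the printed stretch, which lies before the outermost start. The unmarked PSMB8 matches thus lie outside its printed bases, and its marked CRE core is not counted here. The NF-kB match of HLA-B also lies outside its printed bases. In B2M and between TAP1 and PSMB9 the 2 IRF cores overlap each other, so they are not separate matches. The GC content of these 200 bases ran from 49.5% in HLA-E to 69.0% in PSMB9 (median of all promoters 64.5%), and the ratio of observed to expected CpG from 0.52 in PSMB8 to 0.85 in TAP2 (median 0.77).

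The heavy chains carry the peptide. HLA-C (ENSG00000204525, chr6:31236526-31239907, − strand) presents peptides and is read by killer-cell receptors of natural killer cells. It had a single peak, in HET-1A library 2, at chr6:31239797-31239996, with a fold enrichment of 3.94 (2.42 to 6.11) and 18 tags over a local background of 3.82 (q = 3.99e-05 within the list). Its summit lay 63 bp upstream of the main start site, at base 138 of the printed sequence, and the peak held the CRE core and all Y boxes but the first. The value was among the lower ones for that library, at percentile 29.3 of its 6901 promoter peaks. No other library held a peak in the HLA-C window.

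HLA-E (ENSG00000204592, chr6:30457286-30461971, + strand) presents mainly signal peptides of other class I chains to natural killer cells. In HET-1A library 2 its promoter peak at chr6:30457086-30457365 had a fold enrichment of 4.97 (3.45 to 6.95), with 32 tags over a background of 5.64 and percentile 64.4. The summit lay 76 bp upstream of the start, at base 125 of the printed sequence, between its Y boxes. The same library held 2 distal peaks downstream of the gene, with fold enrichments of 3.79 at 2546 bp and 3.78 at 6584 bp from the gene end. No peak was found in the other 5 libraries.

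HLA-B (ENSG00000234745, chr6:31321649-31334844, − strand), a classical heavy chain and the most variable of the 9 genes between people, had no peak in its window in any of the 6 libraries. Its 200-base promoter was identical to that of HLA-C at 87.7% of aligned positions, against 68.7% for HLA-B and HLA-E and 69.0% for HLA-C and HLA-E. Close copies can lose reads that map to more than 1 place, and how such reads were treated is not given in the sources used here. In the primary assembly, every one of the 427 words of 75 bases within 250 bp of the HLA-B start occurred once. The same held for the other 8 genes. Only exact matches of full words were counted. How trimmed reads, or reads that differ from the reference, were placed was not tested. The assembly searched held no alternative MHC haplotypes, and whether the authors' reference held them is not given in the sources used here. Differences between the alleles of the lines and the reference were not tested.

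B2M (ENSG00000166710, chr15:45003556-45011049, + strand) is the light chain of all class I molecules. In KYSE-30 library 6 its promoter peak at chr15:45003302-45003801 had the highest fold enrichment of any peak at the 9 genes, 8.27 (5.26 to 12.44), with 21 tags over a background of 1.66 (q = 1.73e-13). It stood at percentile 90.5 of the 5355 promoter peaks of that library and was 500 bp wide, covering the whole printed stretch, with its summit 81 bp upstream of the start, at base 120. HET-1A library 2 had no B2M promoter peak. Of the 510 promoter peaks of KYSE-30 library 6 that were at least as strong as that of B2M, 338 (66.3%) overlapped a peak of HET-1A library 2 and the rest lacked a counterpart there, as B2M did. HET-1A library 2 instead held a peak at the far edge of the window, at chr15:45021023-45021354, with a fold enrichment of 4.55. It reached 27 bp into the window, its summit lay 17455 bp from the B2M start, and the nearest main start site was that of TRIM69, at 7556 bp. KYSE-30 library 6 had a peak at the same place, with a fold enrichment of 4.73, which missed the window by 44 bp.

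Of the promoter peaks of HET-1A library 2 at least as strong as that of HLA-E, 61.1% of 2460 overlapped a peak of KYSE-30 library 6, and of those at least as strong as that of HLA-C, 2439 of 4877. For the NLRC5 peaks the shares were 49.8% of 4911 in HET-1A library 2 and 54.9% of 4694 in KYSE-30 library 6. Over all promoter peaks, 40.9% of those in HET-1A library 2 and 52.7% of those in KYSE-30 library 6 overlapped a peak of the other list. Among all protein-coding genes, 17.1% had a promoter peak in HET-1A library 2 and not in KYSE-30 library 6, 10.4% the reverse and 18.3% in both, so one-sided promoters were common in this pair of libraries.

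**Figure D2:**
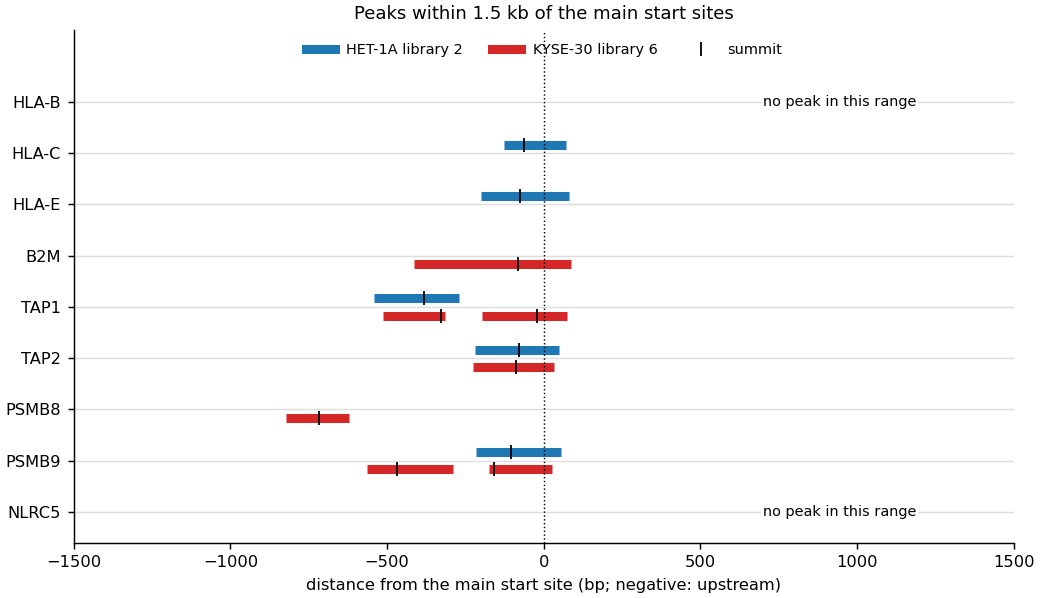
Extent (bars) and summit (ticks) of each peak within 1.5 kb of the main start site of each gene, in bp along the direction of transcription, for HET-1A library 2 (blue) and KYSE-30 library 6 (red). The summits at HLA-C, HLA-E, B2M and TAP2 lie 63 to 87 bp upstream of the start, and HLA-B and NLRC5 have no peak in this range.

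TAP1, TAP2, PSMB8 and PSMB9 form one cluster in the class II region of chromosome 6. TAP2 (ENSG00000204267, chr6:32789610-32806516, − strand), a chain of the peptide transporter, had a promoter peak in both long lists. HET-1A library 2 had a peak at chr6:32806467-32806735 with a fold enrichment of 5.33 (3.78 to 7.33) and 36 tags over 5.94. KYSE-30 library 6 had one at chr6:32806482-32806741 with 6.33 (3.94 to 9.71) and 19 tags over 2.16. They shared 254 bp, their summits were 8 bp apart, 79 and 87 bp upstream of the start, and both peaks covered the printed IRF core. Another gene model, ENSG00000250264, has its main start site 4 bp from either summit, so the peaks cannot be assigned to TAP2 alone. Tags over local background were 6.06 in HET-1A and 8.80 in KYSE-30, a ratio of 0.69 with a counting interval of 0.38 to 1.27. That ratio was at percentile 40.7 of the 2821 promoter peaks shared by the libraries, whose median was 0.74. With the genome background of each library as the denominator, the TAP2 ratio was 0.84, at percentile 72.6 of the shared peaks, whose median was then 0.64. A distal peak with a fold enrichment of 5.02 in HET-1A library 2, downstream of TAP2, had the start of the class II gene HLA-DOB as its nearest main start site, at 2908 bp.

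TAP1 (ENSG00000168394, chr6:32812986-32821593, − strand), the other transporter chain, and PSMB9 (ENSG00000240065, chr6:32811913-32827628, + strand), an immunoproteasome subunit, are read in opposite directions from the printed stretch, so that a peak there counted for both. In HET-1A library 2 this was 1 peak at chr6:32821753-32822023, with a fold enrichment of 5.14 (3.48 to 7.35) and 28 tags over 4.64, whose summit lay 106 bp upstream of the main PSMB9 start and at −382 bp from that of TAP1. In KYSE-30 library 6 there were 2 peaks. The stronger, at chr6:32821406-32821679, had a fold enrichment of 6.34 (4.19 to 9.25) with 25 tags over 3.10 and its summit 20 bp upstream of the TAP1 start. The weaker, at chr6:32821795-32821994, had 3.66 (2.11 to 5.97) with 14 tags over 3.10, at percentile 2.28 of the promoter peaks of its library, and its summit lay 160 bp upstream of the PSMB9 start. The overlapping IRF cores at bases 7 to 21 of the printed stretch lay inside the KYSE-30 peak at the TAP1 start and outside the HET-1A peak, which covered bases 160 to 300. HET-1A library 2 thus had no listed peak at the TAP1 start itself.

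The weaker KYSE-30 peak was the one that overlapped the HET-1A peak, by 200 bp with summits 54 bp apart. Tags over local background were 6.03 in HET-1A and 4.52 in KYSE-30, a ratio of 1.34 with a counting interval of 0.68 to 2.75. This was at percentile 97.5 of the shared promoter peaks (10th to 90th percentile 0.50 to 1.09), but the interval holds the median of 0.74. With the genome background of each library in place of the local one, the ratio was 0.89 (0.45 to 1.83), so its side of 1 turned with the denominator, and it then stood at percentile 74.9 (10th to 90th percentile 0.32 to 1.17), against 72.6 for TAP2. The local background at this stretch was 1.39 times the genome background in HET-1A library 2 and 2.08 times in KYSE-30 library 6.

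PSMB8 (ENSG00000204264, chr6:32808494-32812456, − strand), the second immunoproteasome subunit here, had a promoter peak in KYSE-30 library 6 alone, at chr6:32812446-32812645, with a fold enrichment of 5.71 (3.36 to 9.19) and 15 tags over 1.80. Its summit lay 84 bp upstream of the outermost PSMB8 start and 716 bp upstream of the main one. The peak also lies within 3 kb of an alternative PSMB9 start. It stood near the middle of its list, at percentile 53.7, and 61.6% of the 2482 promoter peaks at least as strong overlapped a peak of HET-1A library 2.

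**Figure D3:**
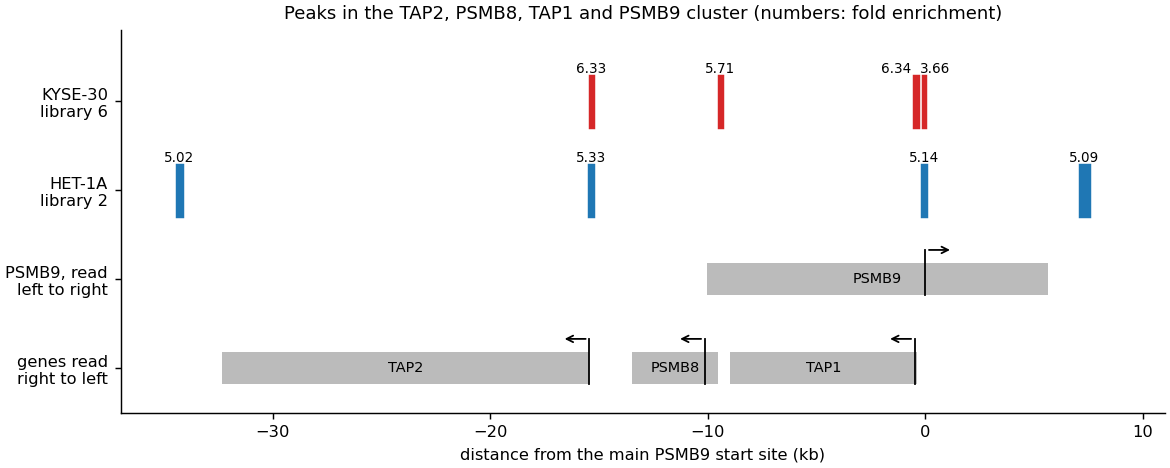
Peaks of HET-1A library 2 (blue) and KYSE-30 library 6 (red) in the cluster of TAP2, PSMB8, TAP1 and PSMB9, by distance in kb from the main PSMB9 start site, with the fold enrichment above each peak, grey bars for the genes and arrows at the main start sites. Both libraries have a peak at the TAP2 start (5.33 and 6.33) and between TAP1 and PSMB9, and KYSE-30 library 6 alone has one at PSMB8 (5.71).

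Many distal peaks were the promoter peak of a neighbouring gene. HET-1A library 2 held a distal peak at 6 of the 9 genes (HLA-E, B2M, TAP1, TAP2, PSMB8 and PSMB9) against 29.5% of all genes, and KYSE-30 library 6 at 4 of 9 (TAP1, TAP2, PSMB8 and PSMB9) against 20.5%. The other libraries held 0 of 9, where the shares of all genes were 0.382% (HET-1A, library 1), 2.76% (KYSE-30, library 4), and 1.14% and 0.551% (KYSE-150, libraries 7 and 8). Since the 4 genes of the cluster lie within 10 kb of each other, the 16 pairs of gene and peak in each long list came from 10 distinct peaks in HET-1A library 2 and 6 in KYSE-30 library 6. Each distal KYSE-30 peak at one gene was a promoter peak of another of the 9. In HET-1A library 2, the peaks that were a promoter peak of none of the 9 were the 2 downstream of HLA-E, the one at the edge of the B2M window, the one near HLA-DOB and one 1483 bp downstream of PSMB9 with a fold enrichment of 5.09.

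NLRC5 (ENSG00000140853, chr16:57023397-57117443, + strand), the transactivator, had no peak at its main start site in any library. HET-1A library 2 held a peak at chr16:57106096-57106316 with a fold enrichment of 3.92 (2.75 to 5.44), in intron 38 of the main transcript and 82756 bp from its start, with 34 tags over a local background of 7.92 that was 2.37 times the genome background. KYSE-30 library 6 held another at chr16:57068824-57069110 with 4.29 (2.32 to 7.39) and 11 tags, in intron 13 and 45517 bp from the start. The 2 peaks lay in different introns and counted as promoter peaks only through other of the 28 annotated start sites of this gene. With the main start site alone, each long list held a promoter peak at 5 of the 9 genes, against 30.5% and 25.0% of all genes.

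**Figure D4:**
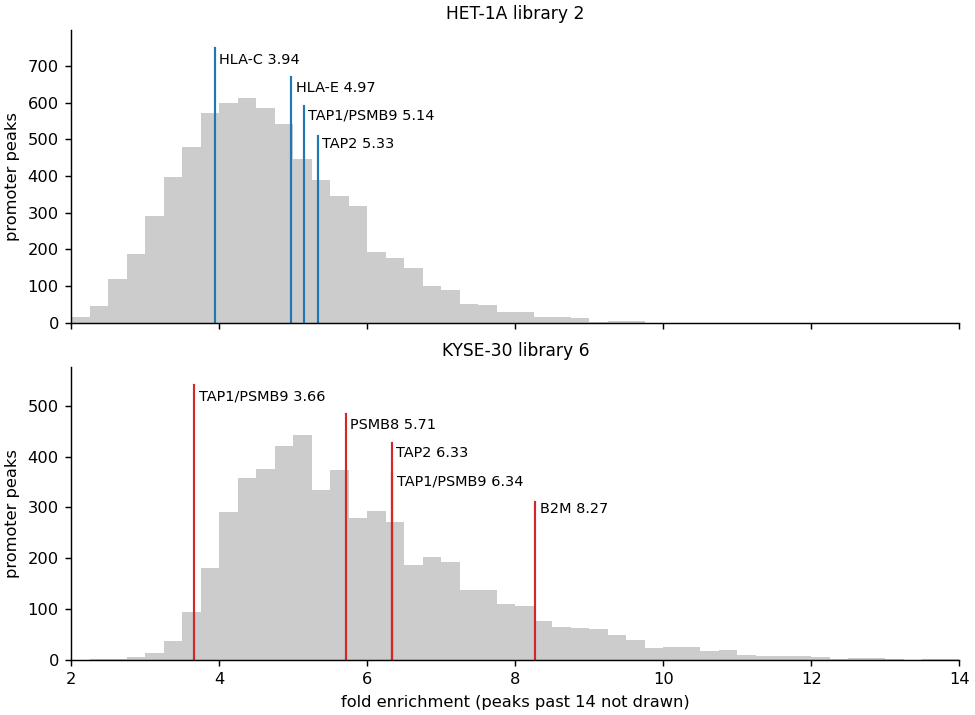
Number of promoter peaks by fold enrichment (bins of 0.25, linear axes) in HET-1A library 2 (top) and KYSE-30 library 6 (bottom), with a line for each peak within 3 kb of the main start site of one of the 9 genes. HLA-C (3.94) and the weaker TAP1/PSMB9 peak (3.66) lie on the low side of their lists and B2M (8.27) on the high side.

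The rest of the pathway was described by a list of 33 genes. In HET-1A library 2, 23 of them (69.7%) had a promoter peak, and in KYSE-30 library 6, 14 (42.4%), against 35.4% and 28.7% of all genes. KYSE-30 library 4 held 3 (9.09%), against 3.88% of all genes, and KYSE-150 library 8 held 1, against 0.363%. HET-1A library 1 and KYSE-150 library 7 held none, against 0.0944% and 1.79%. Both long lists had a promoter peak at 12, HET-1A library 2 alone at 11 and KYSE-30 library 6 alone at 2, HLA-F and NFYC. Among all protein-coding genes the shares of these 3 patterns were 18.3%, 17.1% and 10.4%. HLA-F, a further heavy chain, had a fold enrichment of 5.26 in the long KYSE-30 list, and HLA-G had a promoter peak in no list.

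Genes of the pathway with promoter peaks in 3 libraries were CALR and CANX, chaperones of heavy-chain folding, PSME2, a subunit of the proteasome activator, and NFYA, a subunit of the factor that binds the Y box. CALR had fold enrichments of 7.58 and 6.51 in the long HET-1A and KYSE-30 lists and 3.85 in KYSE-150 library 8, the only pathway gene called in a KYSE-150 library. CANX had 6.45 and 6.38 in the same long lists and 5.23 in KYSE-30 library 4. PSME2 had 5.44, 4.10 and 4.16 in the same order, and NFYA 6.09, 7.81 and 3.81. None of the 9 genes was called in more than 2 libraries.

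The highest promoter fold enrichments of the pathway list were in KYSE-30 library 6, at IFNGR1 (8.54), NFYA (7.81), JAK2 (7.31) and IRF1 (7.23), and at CALR in HET-1A library 2 (7.58). IFNGR1, a chain of the interferon gamma receptor, JAK2, a kinase of that receptor, and IRF1, an interferon-induced activator of class I genes, had 4.11, 3.45 and 5.37 in HET-1A library 2. Fold enrichments are relative to the background of their own library, and the median promoter peak was 4.56 in HET-1A library 2 and 5.60 in KYSE-30 library 6, so they were not compared between lines. By role, all 7 proteasome genes of the list had a promoter peak in HET-1A library 2 and 3 in KYSE-30 library 6, the 12 transcription factors 9 and 6, the 5 loading genes 3 and 2, the 4 genes of the interferon gamma receptor and its kinases 3 and 2, and the trimming enzymes ERAP1 and ERAP2 none. Of all protein-coding genes, 35.4% had a promoter peak in HET-1A library 2 and 28.7% in KYSE-30 library 6. The groups are small, and no test was run on them.

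**Figure D5:**
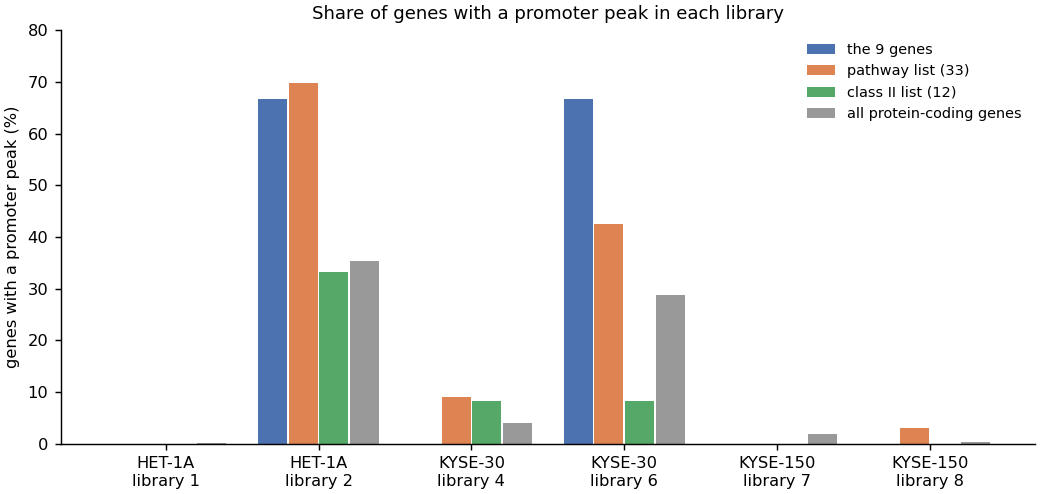
Share of genes with a promoter peak (%) in each of the 6 libraries, for the 9 genes, the other 33 genes of the class I pathway, the 12 MHC class II genes and all protein-coding genes. The 9 genes reach 66.7% in HET-1A library 2 and KYSE-30 library 6 and 0 in the other 4 libraries, where all genes lie between 0.0944% and 3.88%.

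MHC class II molecules present peptides from outside the cell and are mostly limited to immune cells unless induced by interferon gamma through CIITA. Of 12 class II genes, 4 (33.3%) had a promoter peak in HET-1A library 2, against 35.4% of all genes. KYSE-30 libraries 4 and 6 held 1 each (8.33%), against 3.88% and 28.7%, and the other libraries none. The shares were thus no more than those of all genes in the long lists, and above it in KYSE-30 library 4 through 1 gene, HLA-DMA. HLA-DQB1 had a fold enrichment of 4.72 at 85 bp from its start and CIITA 3.14 at 52 bp, both in HET-1A library 2. The peaks counted for HLA-DMA, 6.01 in the long HET-1A list and 3.55 and 3.78 in the KYSE-30 lists (libraries 4 and 6), lay nearest to the start of BRD2, and that of HLA-DOB was the peak of 5.02 already given for TAP2.

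Likeness to TAP1 was taken from the highest promoter peak per library, a library with no peak being set to 1. The TAP1 peaks used, 5.14 and 6.34, did not overlap, and the first lay nearest to the PSMB9 start. The most like genes outside all lists were IFT20 and TNFAIP1 (5.14 and 6.21 in the long HET-1A and KYSE-30 lists for both) and C6orf89 (5.11 and 6.25). Each had a summed log2 difference of 0.03 over the 6 libraries. The equal values of IFT20 and TNFAIP1 may stand for shared peaks. The presence pattern of TAP1, called in the long lists and in no other, was shared by 2969 of 20136 genes (14.7%).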

How the data were processed

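ATAC-seq of HET-1A, KYSE-30 and KYSE-150 (2 libraries each) was used as deposited peak lists. The authors trimmed and mapped reads to hg19 with Bowtie2 2.3.3.1, marked duplicates with Picard 2.2.1, removed blacklisted regions, corrected the positions of Tn5 cuts, used fragments shorter than 100 bp and ran peak calling per library with MACS2 2.1.0.20160309 at q 0.05 (extension 200 bp). Replicates were not pooled. The deposited lists give a score (10 times −log10 q), a fold enrichment ratio at the summit, and −log10 of the p-value and q-value within the library.

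Promoter (3 kb) and distal peaks (gene body with 10 kb flanks, 1 shared bp) were assigned with GENCODE 44 on hg19 in Python 3.11.15 (numpy 2.4.6, pandas 2.3.3, scipy 1.17.1). Reference chromosome lengths held every peak. The main start site is that of the canonical transcript. Summit tags were recovered from fold enrichment and p-value (tolerance 0.001 in −log10 p), and the recovery and windows were tested on simulated peaks. PECAM1, a listed marker, has no entry in the annotation used. The genes and lists were chosen with earlier results of these data known. Named were all 9 genes, pathway genes with promoter peaks in 3 or more libraries or among the 5 highest fold enrichments, every class II gene with a promoter peak, and the 3 genes most like TAP1. Genes named beside these, including HLA-F, HLA-G, NFYC, ERAP1, ERAP2 and the marker genes, were named after their values were seen. Some genes of the pathway list are not reported here by name. Alternatives were stricter q-values, an equal number of peaks, other promoter, flank, overlap and start-site rules, the nearest summit, tags over background, the genome background and each library left out. The main start site alone, the overlap of equally strong peaks and the check of word uniqueness were added after the data were seen.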

Additional observations from a re-analysis of the deposited data

How the results depend on the processing

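Taking an equal number of 168 peaks per library left 0 of the 9 genes with a promoter peak in HET-1A library 2 and in KYSE-30 library 6, and, of the pathway list, 0 in HET-1A library 2, KYSE-30 library 6 and KYSE-150 library 8 and 1 in KYSE-30 library 4. At that setting 0.492% of all genes had a promoter peak in HET-1A library 2 and 0.780% in KYSE-30 library 6. The shares were 0.556% in KYSE-30 library 4 and 0.184% in KYSE-150 library 8. A count of 0 thus says nothing about these genes. A q-value under 0.001 left 1 of the 33 pathway genes in KYSE-30 library 4, where 3.05% of all genes then had a promoter peak. With no flank, 0 of the 9 genes had a distal peak in HET-1A library 2 or KYSE-30 library 6. The share of all genes was not computed at that setting, so this count cannot be read against a background. Leaving out 1 library at a time, the count of genes with a promoter peak in either library ranged from 0 to 6 in HET-1A (0 without library 2) and from 0 to 6 in KYSE-30 (0 without library 6). The B2M value was 12.65 as tags over local background, and that of PSMB9 in KYSE-30 library 6 was 3.66 at the summit nearest to its main start. In the 2 long lists, 12 of 14 alternatives kept the count within 1.5 times for promoter peaks, distal peaks and the pathway list alike. In the other 4 lists the counts of the 9 genes were 0 and stayed 0, which stricter rules could not change. No peak number was skipped around the 9 genes in 5 of the 6 lists. In KYSE-150 library 8, 20 numbers were skipped around 1 gene, NLRC5, so a peak there could have been removed from the list. In HET-1A library 1, NLRC5 was not flanked by listed peaks on both sides, so a skipped number could not be seen. No paired analysis was possible because the lines share no library number.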
